A study of Arabidopsis thaliana with 6 samples.

Results

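The auxin co-receptors comprise 2 protein families, the TIR1/AFB F-box proteins and the Aux/IAA repressors. All 6 TIR1/AFB genes and 29 Aux/IAA genes of Arabidopsis thaliana were taken by their TAIR10 locus, giving 35 of the 27444 protein-coding genes on the 5 nuclear chromosomes. For each gene, regions were counted in a gene window that ran from 2500 bp upstream of the transcription start site (TSS) to 1000 bp past the end of the gene. A region that shared at least 1 bp with the gene window was counted.

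Auxin acts as a molecular glue between a TIR1/AFB protein, the substrate-binding subunit of an SCF ubiquitin ligase, and a short degron in domain II of an Aux/IAA protein. The Aux/IAA is then ubiquitinated and degraded, which frees the ARF transcription factors that it had held in check together with TOPLESS co-repressors. Many Aux/IAA genes are themselves rapidly induced by auxin through ARF binding sites in their promoters, so that the pathway feeds back on itself. In the shoot apex this pathway drives organ initiation around a centre of stem cells that are kept by the homeodomain protein WUSCHEL (WUS).

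ChIP-seq had been carried out on whole seedlings, 5 days after germination, that had received 25 µM dexamethasone for 2 h according to the labels, while the methods of the study state a lower dose for this line. WUS-GR seedlings carried pUBI10::mCherry-GR-linker-WUS, a transgene in which a broadly active ubiquitin promoter drives WUS tagged with mCherry and with a steroid-binding domain (GR), so that the protein enters the nucleus once dexamethasone is given. The line descended from a single insertion and was homozygous, and its promoter is active well beyond the shoot apex, where WUS is normally made. Col-0 wild-type seedlings, which lack the transgene, received the same treatment. Chromatin was recovered in 3 ways: by RFP-trap, through the mCherry tag, by an antibody against H3K9/K14ac, histone H3 acetylation as found at active genes, and by an antibody against H3K27me3, the histone H3 methylation laid down by Polycomb at silent genes.

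Each of the 6 combinations of genotype and pull-down was represented by 1 list of genomic windows, made from pooled immunoprecipitations, so there was no replicate error and no test between the genotypes was possible. A window was placed in the WUS-GR list where WUS-GR exceeded Col-0 and in the Col-0 list where it fell short. Histone windows in the WUS-GR list are called gained and those in the Col-0 list lost. The lists hold positions without read counts, so the depth behind them is unknown and the size of a change cannot be given. Merged windows made 10087 WUS-GR and 580 Col-0 RFP-trap regions. Lost and gained regions of the same mark that lay under 73 bp apart were removed, which left 5487 gained and 5110 lost H3K9/K14ac regions and 671 gained and 2570 lost H3K27me3 regions. The shares among all protein-coding genes that stand beside the counts below describe these lists and are not a test.

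The upstream stretches that carry the auxin response and G-box words in WUS-GR regions are shown first, since the auxin response words stood more often in the WUS-GR regions of the co-receptor genes than in those of other genes. The sequences are from the TAIR10 reference of RefSeq, 5′ to 3′ on the strand of the gene. Capitals mark the words TGTCTC and TGTCGG, to which ARF proteins are known to bind, and the G-box CACGTG, each read on either strand. Every stretch lay whole inside 1 WUS-GR region, and the stretches were chosen after the word positions had been seen.
IAA19, chr3:5263801-5264000, plus strand, -200 to -1 bp from the TSS: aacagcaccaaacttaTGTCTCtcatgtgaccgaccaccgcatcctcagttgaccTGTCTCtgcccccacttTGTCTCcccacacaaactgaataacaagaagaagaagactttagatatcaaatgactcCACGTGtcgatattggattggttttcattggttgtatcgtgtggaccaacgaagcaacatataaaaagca
IAA1, chr4:8360846-8360995, plus strand, -150 to -1 bp: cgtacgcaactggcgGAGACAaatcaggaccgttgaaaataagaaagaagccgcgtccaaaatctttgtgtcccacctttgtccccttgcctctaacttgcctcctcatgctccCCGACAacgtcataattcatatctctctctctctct
IAA3, chr1:1129889-1130089, minus strand, -400 to -200 bp: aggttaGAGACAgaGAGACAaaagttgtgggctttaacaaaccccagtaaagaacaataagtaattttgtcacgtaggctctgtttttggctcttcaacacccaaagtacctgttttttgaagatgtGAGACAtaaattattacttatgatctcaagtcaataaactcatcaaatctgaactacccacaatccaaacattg
IAA12, chr1:1240201-1240293, plus strand, -93 to -1 bp: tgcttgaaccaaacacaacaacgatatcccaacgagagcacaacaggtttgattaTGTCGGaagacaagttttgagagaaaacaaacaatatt
IAA13, chr2:14116090-14116200, minus strand, -111 to -1 bp: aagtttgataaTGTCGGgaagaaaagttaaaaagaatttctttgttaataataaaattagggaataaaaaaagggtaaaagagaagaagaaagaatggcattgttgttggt
TIR1, chr3:23279555-23279584, minus strand, -2954 to -2925 bp: gctttgtgGAGACACGTGtaatataaatga
TIR1, chr3:23276505-23276534, minus strand, 96 to 125 bp, within the 5′ UTR: aagcttataagaCACGTGtcatcatcagaa

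In the IAA19 stretch 3 copies of TGTCTC and 1 G-box stood in the last 200 bp before the TSS. The IAA12 and IAA13 genes, which encode closely related repressors, each had 1 TGTCGG just upstream of the TSS. The distal TIR1 stretch lies outside the gene window, in the part of a WUS-GR region that reaches past the window edge. In this stretch the G-box shared bases with TGTCTC on the other strand.

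Words were searched over whole WUS-GR regions, including any part that reached past the gene window. TGTCTC was present in 19 of the 49 WUS-GR regions that overlapped the gene windows of the co-receptors (38.8%), against 23.6% of all WUS-GR regions. TGTCGG was present in 13 of these 49 regions (26.5%), against 10.4% of all WUS-GR regions. The regions at the co-receptor genes had a median length of 400 bp and WUS-GR regions as a whole one of 300 bp, and the part of this length in the shares was not tested. Over promoters of equal length, the 300 bp before the TSS, TGTCTC was found in 12 of 35 co-receptor genes (34.3%) and in 13% of all protein-coding genes. TGTCGG was found in 6 of these promoters (17.1%) and in 4.91% of all such promoters.

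The G-box and the words tied to WUS differed less. CACGTG was present in 12 of the 49 regions (24.5%) and in 22.6% of all WUS-GR regions, and stood in 11.4% of the co-receptor promoters and 7.09% of all promoters. TGAATGAA occurred in 4 regions (8.16%), against 5.5% of all WUS-GR regions, and in 0 of the 35 promoters, against 2.67% of all promoters. At least 1 of the words with a TTAAT core, which WUS is known to bind and which were searched as the word TTAATGG, the word TTAATCC, the word TTAATGC and the word TTAATCG, occurred in 11 regions (22.4%), against 20.5% of all WUS-GR regions. The same 4 words stood in 28.6% of the co-receptor promoters and in 18.9% of all promoters. A match is a string of letters and is not evidence of binding, and TGTCTC and the G-box can share bases.

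To determine how widely WUS-GR occupied the co-receptor genes, RFP-trap regions were counted in every gene window. A WUS-GR region was present at 28 of the 35 genes (80%), against 38.1% of all protein-coding genes. These were 5 of the 6 TIR1/AFB genes and 23 of the 29 Aux/IAA genes. The 7 genes without a WUS-GR region were AFB1, IAA5, IAA10, IAA15, IAA28, IAA30 and IAA32. At least 2 separate WUS-GR regions were found at 14 co-receptor genes (40%), against 14.2% of all protein-coding genes. Among genes with a region, the regions covered a median of 600 bp of the gene window at the co-receptors (range 100 to 2246, n = 28) and a median of 400 bp at protein-coding genes as a whole (n = 10452). The median gene length was 1937 bp for the co-receptors, against 2078 bp for all protein-coding genes.

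Col-0 RFP-trap regions were found at 2 of the 35 genes, TIR1 and IAA29 (5.71%), against 2.39% of all protein-coding genes. At TIR1 the Col-0 window covered 2430 to 2529 bp from the TSS, within the coding sequence and far from both WUS-GR regions. At IAA29 the Col-0 window covered -2431 to -2332 bp and filled exactly the gap between a pair of WUS-GR regions, which ended at -2432 bp and began again at -2331 bp.

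**Figure D1:**
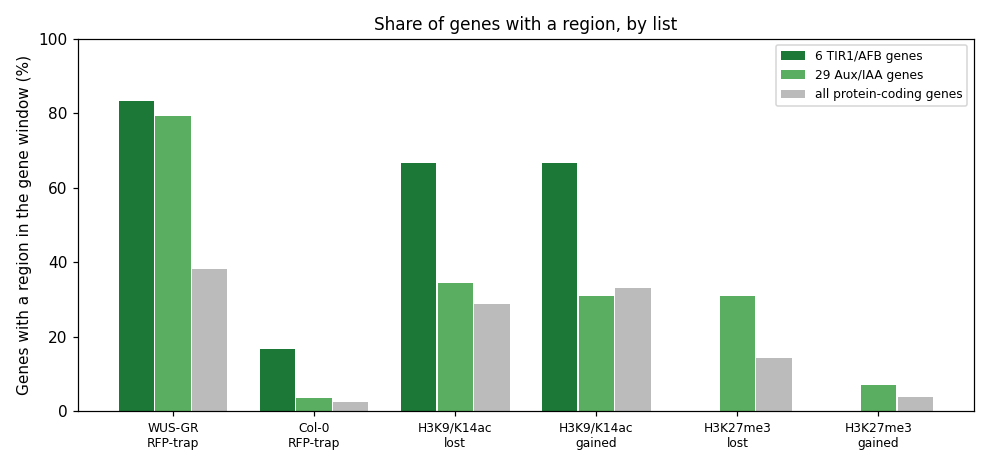
The bars give the share of genes, in percent, with at least 1 region of each list in the gene window, for the 6 TIR1/AFB genes, the 29 Aux/IAA genes and all protein-coding genes. Both families stand at about 80% for WUS-GR RFP-trap regions against 38.1% of all genes, and no TIR1/AFB gene had a changed H3K27me3 region.

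WUS-GR regions at the co-receptors lay mostly upstream of the gene, some at the TSS and others far from it. Of the 49 regions, 34 had most of their bases upstream of the gene, 7 downstream, 4 in the 5′ UTR, 2 in the 3′ UTR, 1 in coding sequence and 1 in an intron. Their midpoints had a median of -411 bp from the TSS, with 15 of the 49 within 500 bp and 22 within 1000 bp of it. Between -100 and -50 bp, 13 of the 35 genes (37.1%) were covered by a WUS-GR region, against 11.1% of all protein-coding genes at -100 bp and 11.6% at -50 bp. Further maxima lay upstream. At -850 bp 10 of the 35 genes (28.6%) were covered, against 5.41% of all protein-coding genes. From -2100 to -2050 bp 10 genes were covered again, against 4.29% of all protein-coding genes at -2100 bp and 4.22% at -2050 bp. By a rule chosen after these values had been seen, a region within 500 bp of the TSS on either side was called proximal. A proximal WUS-GR region was present at 16 of the 35 genes (45.7%), against 19.7% of all protein-coding genes. These were TIR1, AFB2, IAA1, IAA2, IAA3, IAA4, IAA6, IAA8, IAA9, IAA11, IAA12, IAA13, IAA16, IAA18, IAA19 and IAA26.

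Several regions could equally belong to a neighbour. With each region given to a single gene by its midpoint, 29 of the 49 WUS-GR regions went to the co-receptor gene, 12 to another protein-coding gene, 6 to a gene that does not encode a protein and 2 to no gene. On this count 20 of the 35 co-receptor genes had a region, against 23% of all protein-coding genes, and 3 of the 6 TIR1/AFB genes.

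**Figure D2:**
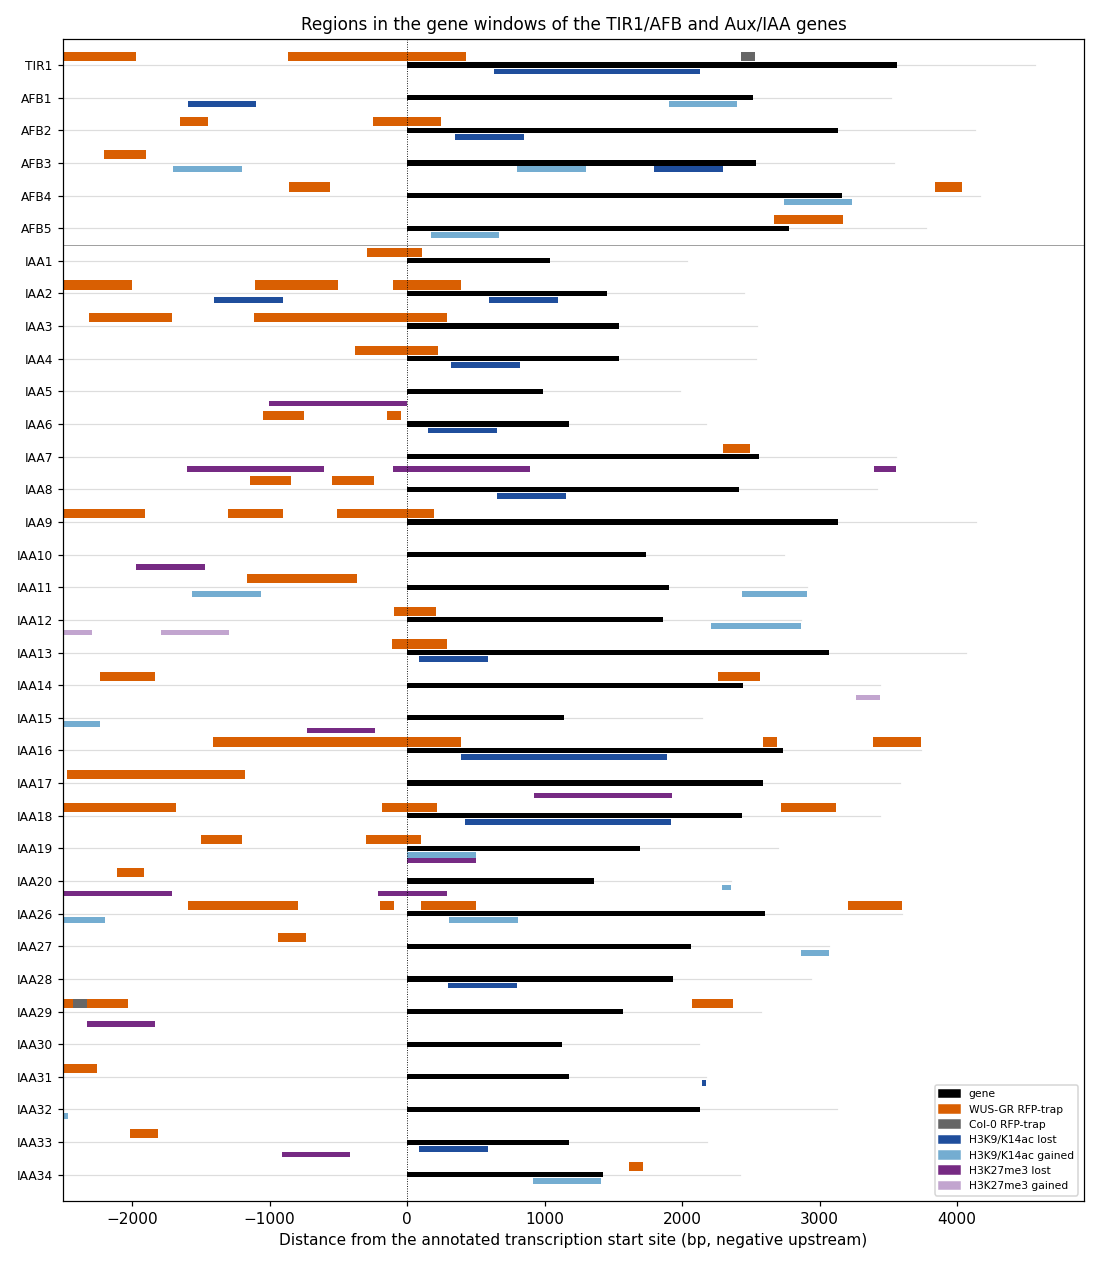
Each row is a gene, aligned at its TSS, with the gene as a black bar and the gene window as a grey line along an axis of distance from the TSS in bp. Coloured bars are the regions of the 6 lists, cut at the window ends. WUS-GR regions lie at the TSS in 16 genes, within 500 bp, and far upstream in others, and lost H3K9/K14ac regions follow them inside the gene in TIR1, AFB2, IAA2, IAA4, IAA6, IAA8, IAA13, IAA16 and IAA18.

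Lost and gained H3K9/K14ac were then placed on the same gene windows. A lost region was present at 14 of the 35 genes (40%), against 28.8% of all protein-coding genes, and a gained region at 13 genes (37.1%), against 33.1%. Over whole gene windows both shares therefore stood close to those of all genes. Lost and no gained acetylation was seen at 12 co-receptor genes, gained and no lost at 11, both at 2 (AFB1 and AFB3) and neither at 10. A WUS-GR region together with a lost region was present at 12 genes (34.3%), against 13.2% of all protein-coding genes, and a WUS-GR region together with a gained region at 10 genes (28.6%), against 14.6%. Among genes with a WUS-GR region, 34.6% of all protein-coding genes had a lost and 38.3% a gained region in the window, and the co-receptors counted 12 and 10 of 28. Most histone regions were a single 500 bp window: with regions of at least 2 windows, 3 co-receptor genes had lost acetylation (8.57%), namely TIR1, IAA16 and IAA18, against 8.21% of all protein-coding genes, and 2 had gained acetylation (5.71%), against 11.7%. With histone regions given to a single gene by midpoint, 5 co-receptor genes had gained acetylation (14.3%), against 17.9% of all protein-coding genes, and 11 had lost acetylation (31.4%), against 16%.

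The directions separated inside the genes. Within the first 2000 bp of the gene, a span chosen after the values had been seen, 12 of the 35 co-receptor genes had lost H3K9/K14ac (34.3%), against 14.3% of all protein-coding genes. Gained H3K9/K14ac was found there in 6 genes (17.1%), against 17.5% of all protein-coding genes. The 15 lost regions had a median midpoint of 598 bp from the TSS and 10 of them lay mostly in coding sequence. The 16 gained regions had a median midpoint of 800.5 bp, and 9 of them lay mostly outside the gene, with 5 upstream and 4 downstream. Coverage by gained regions was highest from 2300 to 2450 bp, where it reached 4 of the 35 genes (11.4%), against 3.66% of all protein-coding genes at 2300 bp.

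The same was then counted at genes with proximal WUS-GR. Of the 16 co-receptor genes with a proximal WUS-GR region, 9 also had lost H3K9/K14ac in the first 2000 bp of the gene (56.2%), against 21.7% of the 5396 protein-coding genes with a proximal region. These 9 were TIR1, AFB2, IAA2, IAA4, IAA6, IAA8, IAA13, IAA16 and IAA18. Gained H3K9/K14ac was found in 2 of the 16, IAA19 and IAA26 (12.5%), against 21.8% of the protein-coding genes with a proximal region. Counted over all genes, proximal WUS-GR with lost acetylation occurred at 25.7% of the co-receptor genes and 4.26% of protein-coding genes, and proximal WUS-GR with gained acetylation at 5.71% and 4.3%. Between the nearest WUS-GR region and the lost region of these 9 genes there were 0 to 900 bp, with a median of 100 bp. With regions of at least 2 windows, proximal WUS-GR with lost acetylation was found at 3 co-receptor genes (8.57%), against 1.33% of protein-coding genes, and with gained acetylation at 0, against 1.51%. With adjoining lost and gained regions kept, there were 11 genes with proximal WUS-GR and lost acetylation (31.4%), against 7.56% of protein-coding genes, and 4 with gained acetylation (11.4%), against 7.49%.

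**Figure D3:**
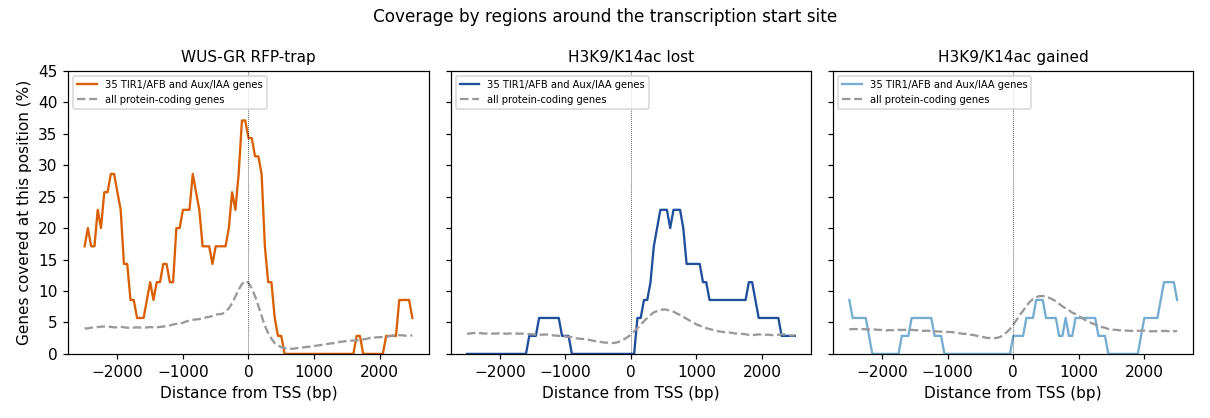
The lines give the share of genes, in percent, that a region covers at each position from -2500 to 2500 bp of the TSS, for the 35 co-receptor genes (coloured) and all protein-coding genes (grey, dashed). WUS-GR coverage of the co-receptors peaks at 37.1% just upstream of the TSS, with other maxima of 28.6% at -850 bp and from -2100 to -2050 bp. Lost H3K9/K14ac reaches its peak of 22.9% between 450 and 750 bp, with a dip to 20% at 600 bp, and coding genes peak at 7.08% at 500 bp. Gained H3K9/K14ac of the co-receptors peaks from 2300 to 2450 bp at 11.4%, against 3.66% of coding genes at 2300 bp, while coding genes peak at 9.19% at 400 bp.

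Of the receptors, TIR1, the first auxin receptor to be identified, had the most extended occupancy. TIR1 (AT3G62980) lies on the minus strand of chromosome 3 from 23273065 to 23276630. One WUS-GR region covered the TSS of TIR1 from -870 to 429 bp, that is the proximal promoter and most of the 5′ UTR, and another covered -2970 to -1971 bp. Together 1830 bp of the TIR1 gene window lay in WUS-GR regions, more than in any other TIR1/AFB gene. Lost H3K9/K14ac began 200 bp past the proximal region and ran from 630 to 2129 bp, over 767 bp of coding sequence and 733 bp of intron.

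AFB2 (AT3G26810), a co-receptor that acts beside TIR1 in roots and shoots, had the same arrangement on a smaller scale. A WUS-GR region lay across the AFB2 TSS from -251 to 248 bp, and another lay from -1651 to -1452 bp. Lost H3K9/K14ac covered 349 to 848 bp of AFB2, over the end of the 5′ UTR and the start of the coding sequence. TIR1 and AFB2 were the only TIR1/AFB genes with a proximal WUS-GR region.

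Their paralogues differed. AFB1 (AT4G03190), which is known for rapid auxin responses in roots, had no WUS-GR region. Lost H3K9/K14ac upstream of AFB1, from -1598 to -1099 bp, lay in the body of the neighbouring gene AT4G03200, and gained H3K9/K14ac covered the end of the AFB1 gene from 1902 to 2401 bp. AFB3 (AT1G12820), a receptor with a known part in the nitrate response of roots, had 1 WUS-GR region from -2202 to -1903 bp, which by midpoint belonged to DET3, a gene for a subunit of the vacuolar proton pump. Within AFB3, H3K9/K14ac was gained from 798 to 1297 bp and lost from 1798 to 2297 bp.

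AFB4 (AT4G24390) and AFB5 (AT5G49980) are the receptors for picolinate auxins, a group of herbicides. AFB4 had 2 WUS-GR regions, and neither belonged to it by midpoint. The upstream one, from -862 to -563 bp, lay at the start of the divergent gene CIPK8, and the downstream one, from 3838 to 4037 bp, lay in AT4G24380. A lost H3K9/K14ac region across the AFB4 TSS from -1762 to 1237 bp was removed because a gained region adjoined it, and gained H3K9/K14ac at the end of the gene, from 2738 to 3237 bp, was kept. AFB5 had its only WUS-GR region at the 3′ end, from 2671 to 3170 bp, while H3K9/K14ac was gained in coding sequence from 171 to 670 bp. Lost H3K9/K14ac was thus counted at 4 of the 6 receptors (TIR1, AFB1, AFB2 and AFB3) and gained at 4 (AFB1, AFB3, AFB4 and AFB5). The shares among all protein-coding genes were 28.8% for lost and 33.1% for gained. With regions given to a single gene by midpoint, lost H3K9/K14ac remained at TIR1 and AFB2, against 16% of all protein-coding genes. Gained H3K9/K14ac then remained at AFB3 and AFB5, against 17.9% of all protein-coding genes.

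Among the repressors, the Aux/IAA proteins were divided by the degron core, since this short stretch decides how tightly auxin ties a repressor to its receptor. A full core, with the residues GWPPV, was found in 17 proteins. In 6 proteins (IAA8, IAA10, IAA11, IAA12, IAA13 and IAA27) the last valine was replaced by isoleucine, or in IAA10 by leucine, and 6 (IAA20, IAA30, IAA31, IAA32, IAA33 and IAA34) held no such core. Some Aux/IAA proteins without the core are long-lived and do not respond to auxin through TIR1/AFB in the usual way. The search for the core does not show how stable each of the 6 is. The coding bases of the core show the classes, with the last codon in capitals.
IAA17, full core: ggatggccaccgGTG
IAA12, variant core: ggatggccaccaATT
IAA10, variant core: ggttggccgcctCTA

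WUS-GR regions were counted in each class, and whether the classes differ was not tested. A WUS-GR region stood in the gene window of 14 of 17 genes with a full core, 5 of 6 with a variant core and 4 of 6 without a core. The share among all protein-coding genes was 38.1%. A proximal region was present at 10 of 17 genes with a full core, at 4 of 6 with a variant core and at 0 of 6 without a core, beside 19.7% of all protein-coding genes. At least 2 regions were found at 10 of 17, 1 of 6 and 0 of 6 genes in the same order, beside 14.2% of all protein-coding genes. With 6 genes in a class, counts of 0 and 1 stand near the 19.7% and 14.2% of all genes. Where a gene had a region, WUS-GR regions covered a median of 1000 bp of the gene window for full cores, 400 bp for variant cores and 200 bp without a core. The genes without a core were also shorter, with a median length of 1268.5 bp against 1695 bp for genes with a full core, and the part of length was not tested.

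**Figure D4:**
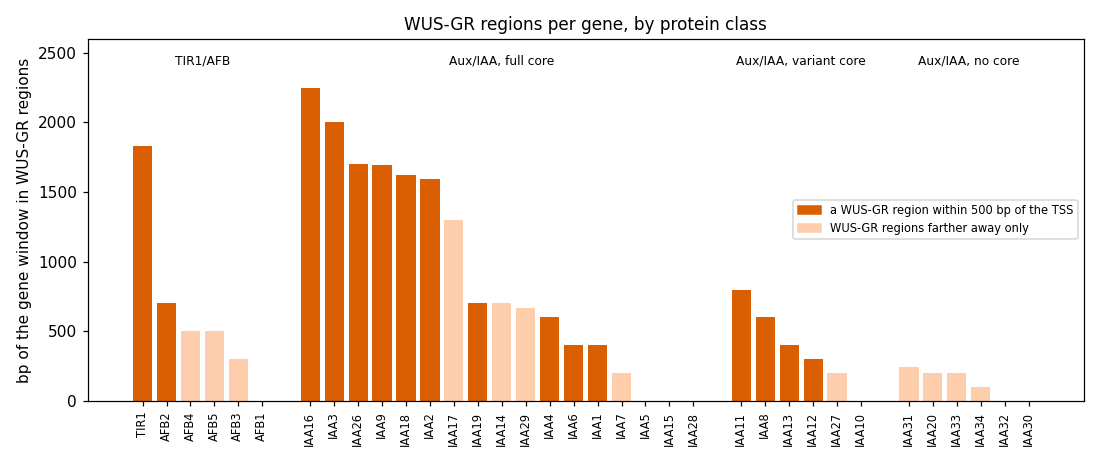
Each bar is a gene and its height the bp of the gene window that lay in WUS-GR regions, with genes grouped as TIR1/AFB and as Aux/IAA with a full, a variant or no degron core. Dark bars mark genes with a WUS-GR region within 500 bp of the TSS. IAA16, IAA3 and TIR1 are the highest, with 2246, 2000 and 1830 bp, and all genes without a core are at 247 bp or below with no dark bar.

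The IAA1 to IAA4 group, early auxin-induced genes, was the only subgroup of more than 1 gene in which every member had a proximal WUS-GR region. At IAA1 a single WUS-GR region from -295 to 104 bp held the promoter stretch shown above, and no other list kept a region there. Gained H3K27me3 from -2995 to -1996 bp had been removed by the 73 bp rule. IAA1 is named because of its promoter sequence. At IAA3, known as SHY2 from a stabilised mutant that suppresses light signalling defects, WUS-GR covered -1111 to 288 bp and -2311 to -1712 bp without a changed histone mark. IAA2 had 3 WUS-GR regions, of which the proximal one ran from -105 to 394 bp. Lost H3K9/K14ac at IAA2 was found from 595 to 1094 bp and upstream from -1405 to -906 bp, where it overlapped another WUS-GR region. At IAA4 the WUS-GR region ran from -378 to 221 bp and lost H3K9/K14ac from 322 to 821 bp.

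The related IAA5, IAA6, IAA15 and IAA19 differed among themselves. At IAA6 WUS-GR covered -148 to -49 bp, and lost H3K9/K14ac covered 152 to 651 bp. A second WUS-GR region at IAA6, from -1048 to -749 bp, lay 10 bp from the TSS of AT1G52840 by its midpoint. IAA19 (AT3G15540), known as MSG2 for its part in tropic bending of the hypocotyl, went the other way. WUS-GR covered the IAA19 TSS from -300 to 99 bp, and the same 500 bp window, from 0 to 499 bp, was both gained for H3K9/K14ac and lost for H3K27me3. IAA5 and IAA15 had no WUS-GR region. H3K27me3 was lost upstream of IAA5 from -1003 to -4 bp, partly in the body of AT1G15590, and upstream of IAA15 from -731 to -232 bp, and the gained H3K9/K14ac at IAA15 lay in a neighbouring gene.

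In the group of IAA7, IAA14, IAA16 and IAA17, whose stabilised forms give strong auxin-resistant plants, all 4 genes had a WUS-GR region, and IAA16 alone had a proximal one. The proximal region of IAA16 (AT3G04730) was the longest at any co-receptor gene, from -1409 to 390 bp. Lost H3K9/K14ac followed directly from 391 to 1890 bp, over 703 bp of coding sequence and 712 bp of intron. IAA7 carried WUS-GR in the 3′ UTR, from 2295 to 2494 bp, and lost H3K27me3 in 3 places, one of which covered the TSS from -105 to 894 bp. At IAA17, known as AXR3, WUS-GR covered -2477 to -1178 bp and H3K27me3 was lost inside the gene from 923 to 1922 bp. At IAA14, known as SOLITARY-ROOT for its block of lateral roots, WUS-GR regions lay from -2237 to -1838 bp and from 2263 to 2562 bp. H3K27me3 was gained downstream from 3263 to 4262 bp, a region that by midpoint belonged to AT4G06195. Inside IAA14, lost H3K27me3 from 263 to 1262 bp adjoined gained H3K27me3 from 1263 to 1762 bp, and both were removed. An adjoining lost and gained pair upstream of IAA14 was removed as well.

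IAA3 and IAA17, IAA2 and IAA7, and IAA1 and IAA14 are divergent neighbours with no protein-coding gene between them. The 6388 bp between IAA3 and IAA17 held 3 WUS-GR regions with 3011 bp in all. The 12510 bp between IAA2 and IAA7 held 6 regions with 3605 bp, and the 10732 bp between IAA1 and IAA14 held 4 regions with 1095 bp. In each pair the gene of the IAA1 to IAA4 group had the proximal region and its partner did not, and no gene windows of co-receptor genes overlapped.

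IAA8, IAA9 and IAA27 are broadly expressed repressors. WUS-GR at IAA8 covered -545 to -246 bp and -1145 to -846 bp, and lost H3K9/K14ac covered 655 to 1154 bp, 900 bp past the nearer region. IAA9, known for its part in leaf and fruit development in tomato, had 3 WUS-GR regions, of which one crossed the TSS from -507 to 192 bp. Inside IAA9, lost H3K9/K14ac from 1093 to 1592 bp directly adjoined gained H3K9/K14ac from 1593 to 2592 bp, and both were therefore removed. IAA27 had 1 WUS-GR region, from -939 to -740 bp, and its gained H3K9/K14ac lay downstream in AT4G29070.

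IAA12 (AT1G04550), known as BODENLOS, is the repressor of MONOPTEROS (ARF5) in the embryo, and IAA13 (AT2G33310) is its closest relative. Both had a WUS-GR region at the TSS, from -93 to 206 bp at IAA12 and from -111 to 288 bp at IAA13, and each region held the TGTCGG word printed above. The histone lists differed. Lost H3K9/K14ac at IAA13 covered 89 to 588 bp and overlapped the WUS-GR region, whereas IAA12 had no changed acetylation within the gene and gained H3K9/K14ac only downstream, from 2207 to 3206 bp, in AT1G04555. The 2 gained H3K27me3 regions upstream of IAA12 lay in the body of AT1G04540. At IAA11 the WUS-GR region from -1162 to -363 bp reached into the divergent gene ABCB23. Gained H3K9/K14ac in the IAA11 window overlapped neighbours, ABCB23 from -1562 to -1063 bp and AT4G28650 from 2438 to 2937 bp. Lost H3K9/K14ac across the IAA11 TSS, from -62 to 437 bp, adjoined gained H3K9/K14ac from 438 to 937 bp, and both were removed. IAA10 had only lost H3K27me3, in the body of AT1G04090.

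In the group of IAA18, IAA26 and IAA28, IAA18 resembled IAA16. WUS-GR covered the IAA18 TSS from -180 to 219 bp, and lost H3K9/K14ac ran from 420 to 1919 bp. IAA26 had 4 WUS-GR regions, the most of any co-receptor gene, with 1698 bp of the gene window. One of them covered 103 to 502 bp in the 5′ UTR of IAA26, where it overlapped gained H3K9/K14ac from 303 to 802 bp. IAA28, named after its values had been seen, had lost H3K9/K14ac from 297 to 796 bp without a WUS-GR region.

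Of the 6 genes without a degron core, 4 had a WUS-GR region, and each of these was distal. By midpoint each region belonged to another gene: ASY3 at IAA20, HYH at IAA31, AT5G57410 at IAA33 and GAT1_2.1 at IAA34. IAA20 carried WUS-GR from -2113 to -1914 bp, inside a lost H3K27me3 region from -2713 to -1714 bp, and H3K27me3 was also lost across its TSS from -213 to 286 bp. The gained H3K9/K14ac region downstream of IAA20 lay in AT2G47000. At IAA33 H3K9/K14ac was lost from 87 to 586 bp and H3K27me3 upstream from -913 to -414 bp, while WUS-GR lay from -2013 to -1814 bp at the start of AT5G57410. IAA31 had WUS-GR from -2753 to -2254 bp, at the gene for the light-signalling factor HYH, and lost H3K9/K14ac downstream in BSH. IAA34 had WUS-GR past the gene end, from 1613 to 1712 bp, and gained H3K9/K14ac from 913 to 1412 bp. IAA32, also named after its values had been seen, had only gained H3K9/K14ac at the window edge, in the neighbouring gene PDE331. Of the 35 genes IAA30 alone had no region in any list, against 25.5% of protein-coding genes without one, because its 2 lost and 2 gained H3K27me3 regions adjoined each other and were removed.

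Lost H3K27me3 was found at 9 of the 35 genes (25.7%), against 14.2% of all protein-coding genes, and gained H3K27me3 at 2, IAA12 and IAA14 (5.71%), against 3.88%. All 9 genes with lost H3K27me3 were Aux/IAA genes (IAA5, IAA7, IAA10, IAA15, IAA17, IAA19, IAA20, IAA29 and IAA33), and 0 of the 6 TIR1/AFB genes had a changed region. A WUS-GR region was present at 6 of the 9. With regions of at least 2 windows 4 genes had lost H3K27me3 (11.4%), against 6.92% of protein-coding genes. With adjoining lost and gained regions kept, 11 had lost H3K27me3 (31.4%), against 27.6% of protein-coding genes, and 5 had gained H3K27me3 (14.3%), against 18.1%, so that both shares came close to those of all genes. Of the 12 lost regions 8 lay mostly upstream of the gene. At IAA29, a gene known to be induced in shade, lost H3K27me3 from -2331 to -1832 bp overlapped a WUS-GR region. By midpoint both of these regions belonged to AT4G32272, and no WUS-GR region in the window belonged to IAA29.

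The other genes of the pathway were counted in the same way. A WUS-GR region was present at 5 of 5 activating ARF genes, 8 of 10 other ARF genes, 5 of 5 TPL/TPR co-repressor genes and 9 of 13 genes for the jasmonate co-receptor COI1 and its JAZ repressors. Of the 8 genes for the SCF core and its regulators, 2 had one, AXR1 and ECR1, the subunits of the enzyme that activates the ubiquitin-like protein RUB. Proximal regions were found at 2 of 5 activating ARF genes (ARF6 and ARF8), 4 of 10 other ARF genes, 5 of 5 TPL/TPR genes, 9 of 13 COI1 and JAZ genes and 0 of 8 SCF genes. Among all protein-coding genes the shares were 38.1% for any WUS-GR region and 19.7% for a proximal one.

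Acetylation at these groups was set beside that at the co-receptors. Among genes with proximal WUS-GR, lost H3K9/K14ac in the first 2000 bp was found at 0 of 5 TPL/TPR genes, 1 of 9 JAZ genes (JAZ6), 1 of 2 activating ARF genes (ARF6) and 1 of 4 other ARF genes (ARF18), against 9 of 16 co-receptor genes and 21.7% of all protein-coding genes with a proximal region. Gained H3K9/K14ac was found at 4 of 5 TPL/TPR genes (TPL, TPR1, TPR2 and TPR4), 3 of 9 JAZ genes (JAZ3, JAZ5 and JAZ9), 0 of 2 activating ARF genes and 3 of 4 other ARF genes (ARF2, ARF10 and ARF18), against 2 of 16 co-receptor genes and 21.8% of all protein-coding genes with a proximal region. The SCF genes are absent from these counts, since 0 of 8 had a proximal region. Without that condition, lost H3K9/K14ac in the first 2000 bp was found at 3 of 8 SCF genes and 3 of 10 other ARF genes. It was found at 1 of 5 activating ARF genes, 1 of 13 COI1 and JAZ genes and 0 of 5 TPL/TPR genes. The co-receptor count was 12 of 35, against 14.3% of all protein-coding genes. These groups are small, and whether they differ was not tested.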

How the data were processed

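Reads were mapped by the authors to TAIR10 with BWA, and the genotypes were compared with hiddenDomains, a hidden Markov model. The deposited values are positions only, 100 bp windows for RFP-trap and 500 bp windows for the histone marks, 86611 in all over 6 lists, with no score or count. Adjacent windows were merged here, and lost and gained regions of a mark under 73 bp apart were removed, as in the study's methods. Gene models came from the RefSeq annotation of TAIR10.1. Genes were taken as in the named-gene rule: all TIR1/AFB genes, Aux/IAA genes with WUS-GR and changed H3K9/K14ac, the 3 with most WUS-GR bases, genes with changed H3K27me3 or a Col-0 region, genes with no region, and TIR1, IAA8, IAA9 and IAA12. Degron classes were read from the translated longest coding sequence of each gene. The members and lists were chosen with earlier results of these data known. Overlap counting was tested on simulated lists. Python 3.11.15, Biopython 1.88 and matplotlib 3.10.9 were used. Alternatives were an upstream limit of 1000 bp, regions of at least 2 windows, overlap of a whole window, assignment by midpoint and histone regions without the 73 bp removal.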

Additional observations from a re-analysis of the deposited data

How the results depend on the processing

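No paired analysis was possible because there was 1 list for every group. Of 67 alternative counts, 45 stayed within 1.5 times the reported count and 22 did not. With regions of at least 2 windows, genes with lost H3K9/K14ac numbered 3 instead of 14 (8.57%, against 8.21% of protein-coding genes). Gained H3K9/K14ac was found at 2 instead of 13 (5.71% against 11.7%) and lost H3K27me3 at 4 instead of 9 (11.4% against 6.92%). WUS-GR with lost H3K9/K14ac was found at 3 instead of 12 (8.57% against 3.9%), and with gained at 2 instead of 10 (5.71% against 5.16%). Lost H3K9/K14ac was found at 1 instead of 4 TIR1/AFB genes (16.7% against 8.21%). For Aux/IAA genes it was 2 of 29 (6.9% against 8.21%) instead of 10 (34.5% against 28.8%). Proximal WUS-GR with lost H3K9/K14ac in the gene was found at 3 instead of 9 (8.57% against 1.33%). With gained it was 0 instead of 2 (against 1.51%). The 3 genes left with lost H3K9/K14ac were TIR1, IAA16 and IAA18. Assignment by midpoint gave 5 genes with gained H3K9/K14ac (14.3%, against 17.9% of protein-coding genes). WUS-GR with gained H3K9/K14ac was then found at 3 genes (8.57% against 5.41%). Of the TIR1/AFB genes, 3 instead of 5 had WUS-GR (50% against 23%), and 2 instead of 4 had lost H3K9/K14ac (33.3% against 16%). Genes with a Col-0 RFP-trap region numbered 1 with 1000 bp upstream (2.86% against 1.78%) or by midpoint (2.86% against 1.32%). With regions of at least 2 windows they numbered 0 (against 0.343%). Genes with gained H3K27me3 numbered 1 (2.86%) with 1000 bp upstream, regions of at least 2 windows or a whole window of overlap. The shares of protein-coding genes were 2.9%, 0.995% and 3.25%. By midpoint there were 0 (against 1.92%) and with all histone regions kept 5 (14.3% against 18.1%). With all histone regions kept, lost H3K27me3 was found at 11 genes (31.4%), against 27.6% of protein-coding genes. On the same count, 4 genes had proximal WUS-GR and gained H3K9/K14ac (11.4% against 7.49%). Proximal WUS-GR with lost H3K9/K14ac was found at 11 (31.4% against 7.56%). The WUS-GR count of 28 ranged from 20 (57.1%, against 23% of protein-coding genes) to 28. The proximal count of 16 was 15 within 250 bp (42.9% against 16.8%) and 18 within 1000 bp of the TSS (51.4% against 24.2%). Alternatives for the proximal counts were chosen after seeing the data. The depth of the lists is unknown, so a gene without a region is not shown to be without signal.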
